A study of Mus musculus with 8 samples.

Results

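The genes described here are 8 scavenger receptors and receptor-like proteins of macrophages, Msr1, Marco, Colec12, Cd36, Scarb1, Olr1, Scarf1 and Cd5l. They were taken by name from the deposited expression table and are 8 of its 23761 listed genes. The choice goes by name and not by a threshold on their values, though earlier results of these data were known when it was made. Scavenger receptors are cell-surface proteins that bind modified lipoproteins, bacterial products, lipids and dying cells, and most of them carry their ligands into the cell. They are grouped into classes by structure rather than by ligand, so members of different classes can take up the same particle. In macrophages, uptake of oxidized or acetylated low density lipoprotein through these receptors is not shut off by the cholesterol that arrives, and it is the known route to the lipid-filled foam cell.

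Total RNA was sequenced from bone marrow-derived macrophages (BMDMs) of 4 LysM mice and 4 K2KO mice, all 3 months old. BMDMs are macrophages grown in culture from flushed marrow in medium conditioned by L929 cells, and the libraries are marked as vehicle-treated. LysM mice carry Cre recombinase on both alleles of the lysozyme M gene (LysM Cre/Cre), and K2KO mice carry the same Cre together with floxed Klf2 (KLF2 flox/flox). The comparison asks how expression in the macrophage differs when Klf2, a zinc finger transcription factor, is targeted in myeloid cells. Cre is driven by the lysozyme M promoter, so only cells in which that promoter has been active can lose Klf2, and both groups carry the altered lysozyme M gene. The LysM libraries are called LysM0 to LysM3 here and the K2KO libraries K2KO0 to K2KO3, since the table identifies a library by genotype and number and not by animal. These numbers are those of the columns, and the titles of the samples are numbered from a different start. Columns were matched to a genotype only, so a library name used here does not point to the sample of the same title.

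The values are FPKM, fragments divided by transcript length in kilobases and by the mapped fragments of the library, so levels are per length and can be compared between genes. How many reads stand behind a value is not known. The spacing of the lowest values gave a rough depth for each library of 0.892 to 1.33 times that of LysM0. The summed FPKM of a library ranged from 497253 to 551608 in LysM and from 448235 to 501965 in K2KO, so all LysM libraries but LysM0 were above every K2KO library. Gapdh was listed at 0 to 0.4999 FPKM in these 8 libraries, and a low value was therefore not read as absence of a transcript. Actb ranged from 2625 to 2949 FPKM in LysM and from 1962 to 2449 FPKM in K2KO.

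The targeted gene was not clearly lower. Klf2 was measured at 44.1, 52.9, 64.7 and 72.8 FPKM in LysM0 to LysM3 and at 45.5, 41.6, 59.2 and 59.3 FPKM in K2KO0 to K2KO3. The groups overlapped, and the log2 fold change of Klf2 was -0.18 (SE 0.17, limma, adjusted p = 0.460). That value ranged from -0.31 to -0.07 with a library left out. With a block on the number of the column it was again -0.18, with an SE of 0.08 (limma, adjusted p = 0.140). With GC content and length regressed out of every library, its sign turned, to 0.05. The deposited value covers the whole gene, and reads from any part that the deletion leaves in place were counted with it. Each difference below is therefore one between the libraries labelled LysM and the libraries labelled K2KO. Of the 10 macrophage markers examined, Cd68 and Cd14 were the most abundant, with means of 1807 and 929 FPKM over the 8 libraries.

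The 8 genes ranged from abundant to barely listed. Cd5l and Cd36 stood at the top, with means over the 8 libraries of 193 and 164 FPKM, levels higher than those of 98.2% and 97.9% of the listed genes. Scarf1 and Scarb1 followed at 33.6 and 30.5 FPKM, then Msr1 at 18.7 FPKM and Colec12 at 6.18 FPKM. Marco, at 0.628 FPKM, lay near the middle of all listed genes, and Olr1, at 0.0844 FPKM, was higher than 37.6% of them. Neighbours in this order were separated in 8 of 8 libraries, with ranges that did not overlap, except for Cd5l over Cd36, which held in 5 of 8 libraries, and Scarf1 over Scarb1, which held in 6 of 8. Marco and Olr1 had a mean FPKM under 1 and were not in the test across genes, which left 6 of the 8 for it.

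**Figure D1:**
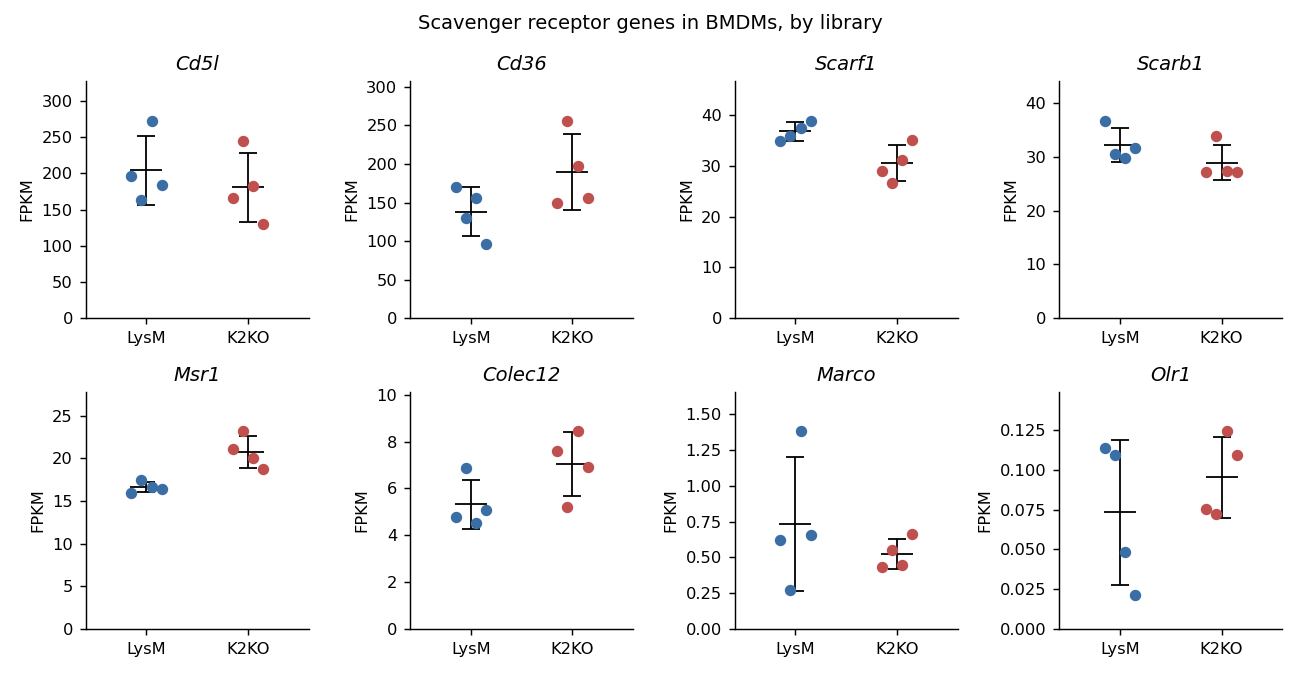
FPKM of each of the 8 genes (vertical axis, from 0, on its own scale in each panel) in the 4 LysM libraries (blue) and the 4 K2KO libraries (red), in the order of their mean level. Each point is a library, and the black bars give the mean and SD. Msr1 is the panel in which all 4 K2KO points lie above all 4 LysM points.

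Of the 6 genes tested, Msr1 was higher in K2KO, Scarf1 was lower, and the other 4 did not pass the test. The test was limma on log2(FPKM + 0.1) over the 10920 genes whose FPKM averaged 1 or more. A gene was called where its adjusted p was under 0.05 and its log2 fold change was over 0.26 in either direction. Adding 0.1 shrinks the fold changes of low genes below their ratio of FPKM. The 2 genes called of 6 stand beside 18.4% of all tested genes called (9.84% higher and 8.61% lower in K2KO). The median log2 fold change of the 6 genes was 0.08, with 3 above and 3 below 0, and that of all tested genes was 0.01. In 1 of the 6 the groups did not overlap, where 23.1% of all tested genes had groups that did not overlap (12.9% with K2KO above and 10.2% with K2KO below). In bulk RNA, fewer cells of a type and less RNA per cell cannot be told apart, and this holds for every difference given here. The study describes 4 mice in each group as biological replicates, so p-values measure the spread between libraries of different mice.

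Class A receptors are trimeric proteins with a collagen-like stalk, and they bind polyanionic ligands. Msr1 (ENSMUSG00000025044.16, chr8:39581685-39642673, minus strand, on the chromosome that also carries Klf2) encodes the first of them to be cloned, a main macrophage receptor for acetylated low density lipoprotein. Msr1 was measured at 16.0, 17.4, 16.7 and 16.4 FPKM in LysM0 to LysM3 and at 21.1, 23.2, 20.1 and 18.7 FPKM in K2KO0 to K2KO3. All 4 K2KO libraries were above all 4 LysM libraries, and the LysM libraries lay within a narrow range. The means were 16.6 ± 0.61 (SD, n = 4) and 20.8 ± 1.88 FPKM, a ratio of 1.25, and the log2 fold change was 0.32 (SE 0.07, 95% interval 0.15 to 0.48, limma, adjusted p = 0.0208). The exact two-sided permutation test of its FPKM gave p = 0.0286, the smallest value that 4 against 4 libraries allow. With GC content and length regressed out of every library, the log2 fold change of Msr1 was 0.07 and it was not called (limma, adjusted p = 0.547). Without LysM3, K2KO0 or K2KO2, its limma adjusted p was 0.0713, 0.0594 and 0.0539.

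Marco (ENSMUSG00000026390.7, chr1:120474538-120505024, minus strand) encodes a class A receptor for unopsonized bacteria and particles that is found on subsets of tissue macrophages. Its level was 0.622, 0.273, 1.38 and 0.656 FPKM in LysM0 to LysM3 and at 0.436, 0.549, 0.447 and 0.661 FPKM in K2KO0 to K2KO3. The K2KO values all lay inside the range of the LysM values, which was set by LysM1 at the low end and LysM2 at the high end. The means were 0.733 ± 0.466 and 0.523 ± 0.105 FPKM (SD, n = 4; exact two-sided permutation test, p = 0.543). With the filter lowered to a mean FPKM of 0.1, Marco had a log2 fold change of -0.26 (SE 0.37) and was not called, where 12.7% of the 14521 genes tested were called, and it was not called without a filter either, where 2.03% of all genes were. Without LysM2 the sign of the difference turned, with the K2KO mean 0.0063 FPKM above that of LysM.

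Colec12 (ENSMUSG00000036103.8, chromosome 18) encodes a collectin of the same class, which adds a C-type lectin domain to the collagen-like stalk. Colec12 was measured at 4.78, 6.87, 4.54 and 5.08 FPKM in LysM0 to LysM3 and at 7.62, 5.19, 8.44 and 6.92 FPKM in K2KO0 to K2KO3. K2KO0, K2KO2 and K2KO3 were above every LysM library, while K2KO1 lay among them. The means were 5.32 ± 1.06 and 7.04 ± 1.38 FPKM (SD, n = 4), and the log2 fold change was 0.40 (SE 0.17, 95% interval 0.02 to 0.77, limma, adjusted p = 0.117), which did not pass the test. Its longest coding transcript shares stretches of at least 200 bases at 95% identity or more with transcripts of 26 other genes, so its level is uncertain.

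Class B receptors are anchored in the membrane at both ends of the protein chain and bind lipids and lipoproteins. Cd36 (ENSMUSG00000002944.15, chr5:17781690-17888747, minus strand) encodes a receptor for long-chain fatty acids, oxidized low density lipoprotein and thrombospondin. Cd36 stood at 169.8, 130.4, 155.3 and 96.8 FPKM in LysM0 to LysM3 and at 149.2, 256.3, 197.2 and 156.5 FPKM in K2KO0 to K2KO3. K2KO1 and K2KO2 were above every LysM library, and the other K2KO libraries lay inside the LysM range. The means were 138 ± 31.96 and 189.8 ± 49.1 FPKM (SD, n = 4), and the log2 fold change was 0.46 (SE 0.21, 95% interval -0.01 to 0.93, limma, adjusted p = 0.142). It was the largest log2 fold change of the 6 tested genes and did not pass the test.

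Scarb1 (ENSMUSG00000037936.15, chr5:125277087-125341094, minus strand) encodes the high density lipoprotein receptor, which takes up cholesteryl ester without the particle and also returns cholesterol to it. Scarb1 stood at 36.7, 30.5, 29.8 and 31.7 FPKM in LysM0 to LysM3 and at 27.2, 33.8, 27.3 and 27.2 FPKM in K2KO0 to K2KO3. K2KO0, K2KO2 and K2KO3 were nearly equal and below every LysM library, while K2KO1 was above all LysM libraries but LysM0. The means were 32.2 ± 3.14 and 28.9 ± 3.28 FPKM (SD, n = 4), and the log2 fold change was -0.16 (SE 0.09, 95% interval -0.37 to 0.05, limma, adjusted p = 0.246). A predicted gene, Gm42633, overlaps Scarb1 on the same strand and is also listed, so reads of the overlap may have been split between them.

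Olr1 (ENSMUSG00000030162.14, chr6:129485244-129507165, minus strand) encodes the class E receptor LOX-1, a C-type lectin that binds oxidized low density lipoprotein and is best known from endothelium. It was measured at 0.114, 0.110, 0.0481 and 0.0216 FPKM in LysM0 to LysM3 and at 0.0757, 0.0725, 0.124 and 0.110 FPKM in K2KO0 to K2KO3. These 8 values are among the lowest of the genes described here and overlap between the groups, with the lowest values in LysM2 and LysM3. The means were 0.0732 ± 0.0457 and 0.0955 ± 0.0255 FPKM (SD, n = 4; exact two-sided permutation test, p = 0.429).

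Scarf1 (ENSMUSG00000038188.17, chr11:75513540-75526582, plus strand) encodes the class F receptor SREC-I, which has repeated epidermal growth factor-like domains and binds acetylated low density lipoprotein and apoptotic cells. It was measured at 34.8, 35.9, 37.5 and 38.9 FPKM in LysM0 to LysM3 and at 29.0, 26.7, 31.1 and 35.1 FPKM in K2KO0 to K2KO3. K2KO0, K2KO1 and K2KO2 were below every LysM library, and the groups overlapped only because K2KO3 lay above LysM0. The means were 36.8 ± 1.80 and 30.5 ± 3.57 FPKM (SD, n = 4), a ratio of 0.83, and the log2 fold change was -0.28 (SE 0.09, 95% interval -0.47 to -0.08, limma, adjusted p = 0.0493). This call lay at the edge of the threshold: it was lost in 9 of 11 other settings and in 7 of the 8 fits that left out a library, and it held without K2KO3. After the regression on GC content and length, the log2 fold change of Scarf1 was -0.16 (limma, adjusted p = 0.254).

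Cd5l (ENSMUSG00000015854.7, chr3:87357881-87371073, plus strand) encodes a secreted protein of scavenger receptor cysteine-rich domains, also called AIM, that is made by tissue macrophages. Cd5l stood at 196.7, 163.7, 273.1 and 184.2 FPKM in LysM0 to LysM3 and at 166.6, 244.5, 183.0 and 129.7 FPKM in K2KO0 to K2KO3. The highest value was in LysM2 and the lowest in K2KO3, and the other 6 libraries were mixed. The means were 204 ± 47.8 and 181 ± 47.9 FPKM (SD, n = 4), and the log2 fold change was -0.19 (SE 0.20, 95% interval -0.65 to 0.27, limma, adjusted p = 0.528). The intervals of Cd36, Scarb1 and Cd5l hold 0 together with changes past the threshold of 0.26 in at least one direction, so this number of libraries does not show whether their expression differed. With a library left out, the log2 fold change ranged from -0.34 to -0.04 for Cd5l and from -0.23 to -0.09 for Scarb1. The range was 0.30 to 0.57 for Cd36 and 0.30 to 0.53 for Colec12. Quantile normalization gave -0.02 for Cd5l.

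**Figure D2:**
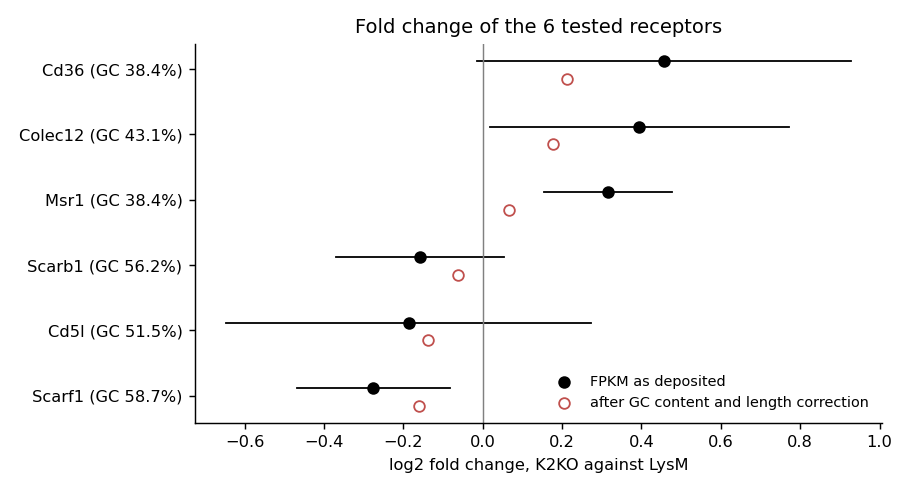
Log2 fold change of K2KO against LysM (horizontal axis, above 0 is higher in K2KO) for the 6 tested genes, with the GC content of the longest coding transcript beside each name. Black points and lines are the estimate and its 95% interval for FPKM as deposited, and open red points are the estimate after the correction for GC content and length, which lies nearer to 0 for each gene and goes from 0.32 to 0.07 for Msr1.

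The direction of the 6 genes followed the GC content of their transcripts. Cd36 and Msr1 (38.4% GC each) and Colec12 (43.1%) had log2 fold changes above 0, and Cd5l (51.5%), Scarb1 (56.2%) and Scarf1 (58.7%) had log2 fold changes below 0. The tested genes as a whole moved the same way. When they were divided into 8 groups of equal size by GC content, the median log2 fold change fell from 0.20 in the lowest group, where 26.6% of genes were called higher in K2KO, to -0.17 in the highest, where 22.5% were called lower. Msr1 and Cd36 belong to the lowest of these groups and Scarf1 to the highest. Base composition thus moved with the fold changes of the receptor genes. After the correction, 7.84% of all tested genes were called and 0 of the 6, none of which had an unadjusted p under 0.05 (limma), with log2 fold changes of 0.21 for Cd36, 0.18 for Colec12, -0.14 for Cd5l and -0.06 for Scarb1. A real difference in expression that goes with base composition and a difference between libraries in how bases were sampled cannot be told apart here.

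**Figure D3:**
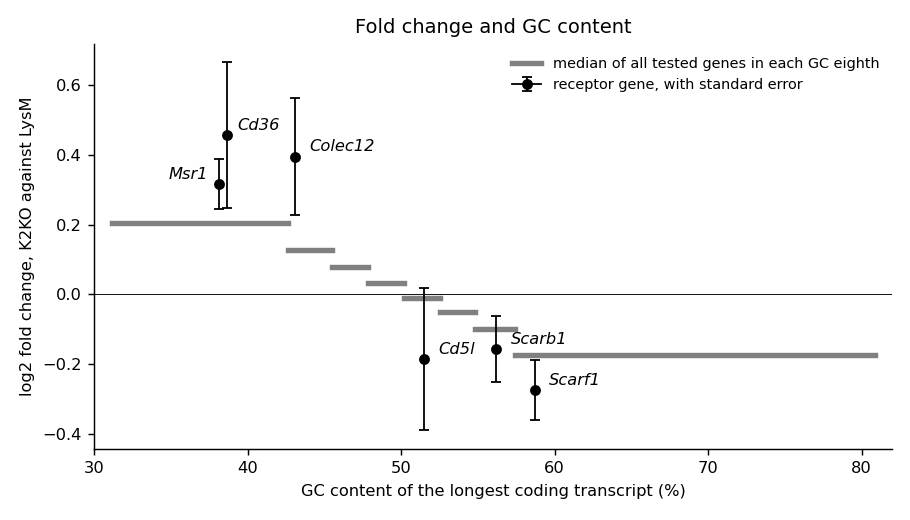
Log2 fold change of K2KO against LysM (vertical axis) by the GC content of the longest coding transcript in percent (horizontal axis). Black points are the 6 tested receptor genes with their standard errors (Msr1 and Cd36, both at 38.4%, are drawn slightly apart), and grey bars are the median of all tested genes in each of 8 GC groups, which falls from 0.20 to -0.17 from left to right.

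Shares within a library are not moved by how the library was scaled. The 8 genes together summed to 434 ± 67.8 FPKM in LysM and 458.5 ± 96.1 FPKM in K2KO (SD, n = 4; exact two-sided permutation test, p = 0.657). Cd36 made up 36.95, 33.9, 29.97 and 25.9% of that sum in LysM0 to LysM3 and 37.2, 43.4, 42.2 and 41.7% in K2KO0 to K2KO3. The K2KO shares of Cd36 were all above the LysM shares, though K2KO0 and LysM0 nearly touched. Cd5l made up 42.8, 42.5, 52.7 and 49.3% in LysM0 to LysM3 and 41.5, 41.4, 39.1 and 34.6% in K2KO0 to K2KO3, all below the LysM shares. Cd5l thus took the larger share in each LysM library, and Cd36 took it in K2KO1, K2KO2 and K2KO3. The share of Cd36 was 9.46 percentage points higher in K2KO and that of Cd5l 7.65 points lower (31.7 ± 4.79 against 41.1 ± 2.72%, and 46.8 ± 5.01 against 39.2 ± 3.25%). The exact two-sided permutation p was 0.0286 for each, and 0.105 after Benjamini-Hochberg adjustment over the 11 shares and ratios tested, which did not pass.

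Within class B, the log2 ratio of Scarb1 to Cd36 was -2.21, -2.09, -2.38 and -1.61 in LysM0 to LysM3 and -2.45, -2.92, -2.85 and -2.52 in K2KO0 to K2KO3. All 4 K2KO ratios were below all 4 LysM ratios, a lower level of Scarb1 relative to Cd36. Neither gene was called by itself (log2 fold changes of -0.16 for Scarb1 and 0.46 for Cd36). The mean log2 ratio was 0.61 lower in K2KO (-2.07 ± 0.33 against -2.69 ± 0.23, SD, n = 4; exact two-sided permutation p = 0.0286, adjusted p = 0.105). Scarb1 and Cd36 lie on the same chromosome but differ in GC content. With GC content and length corrected, a setting chosen after seeing the data, the difference was 5.04 points for the Cd36 share (exact permutation p = 0.171), -4.26 points for the Cd5l share (p = 0.314) and -0.28 for the log2 ratio of Scarb1 to Cd36 (p = 0.114). Msr1 and Cd36 have the same GC content, and their log2 ratio differed by -0.14 between the groups (exact permutation p = 0.6). The log2 ratio of Marco to Msr1 differed by -0.58 (exact permutation p = 0.314).

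**Figure D4:**
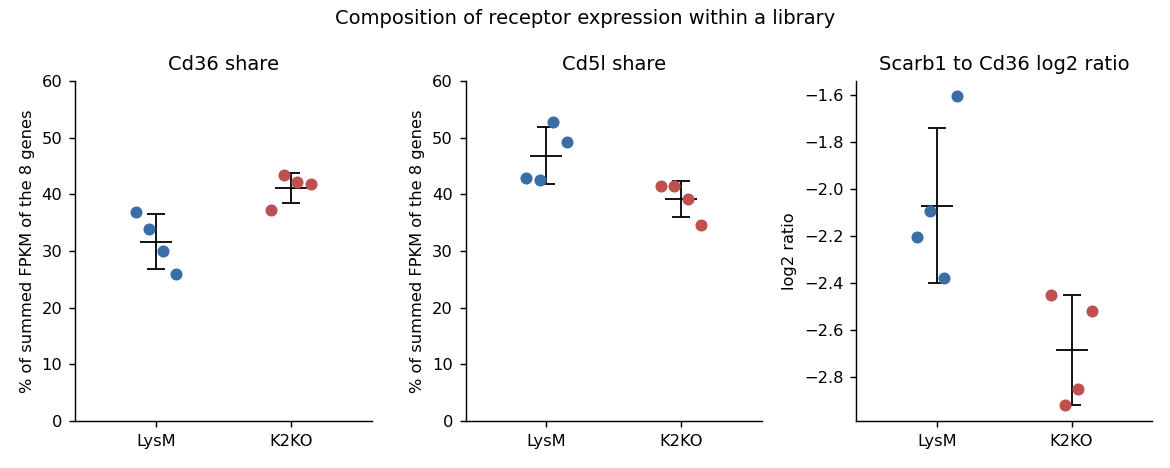
Share of Cd36 and of Cd5l in the summed FPKM of the 8 genes (percent, axes from 0) and the log2 ratio of Scarb1 to Cd36 (axis not from 0), in the 4 LysM (blue) and 4 K2KO (red) libraries. Points are libraries and black bars the mean and SD; in each panel the points of the groups do not overlap.

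The 6 tested genes differed in how steady they were among libraries of a genotype. Msr1 varied least in LysM, with a coefficient of variation of 3.67%, and by 9.06% in K2KO. Cd36 (23.2 and 25.9%) and Cd5l (23.4 and 26.5%) varied about as much in the LysM as in the K2KO libraries. Among the tested genes, those whose log2(FPKM + 0.1) ran most like each receptor over the 8 libraries were Shoc2 and Epc2 for Msr1 (Pearson r = 0.984 and 0.982), Shtn1 and Syncrip for Cd36 (0.9751 and 0.9744) and Slc11a2 and Kcnj2 for Cd5l (0.972 and 0.961). They were Snrnp70 and Rps10 for Scarf1 (0.996 and 0.991), Mgat4a and 9430076C15Rik for Colec12 (0.966 and 0.955) and Nans and Sh3pxd2a for Scarb1 (0.939 and 0.930). These r are the highest of many, over 8 libraries that share genotype, depth and base composition, and are a description. Between the receptors themselves, Msr1 and Scarf1 ran most opposite to each other, with r = -0.93.

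Promoter sequence was at hand for 4 of the 8 genes, the most abundant (Cd5l and Cd36) and the least abundant (Marco and Olr1). It is shown so that the start regions of genes listed at high and at low FPKM can be set side by side. Each is 300 bases from RefSeq on GRCm38.p6, from 250 bases before to 50 after the annotated start, written 5′ to 3′ along the gene. Capitals mark matches, on either strand, to CACCC (the box that KLF proteins bind), GGGCGG (the GC box), TGANTCA (the AP-1 site), GAGGAA (a core bound by PU.1) and TATAAA, and no matches overlap one another. The sequences lie at chr3:87357631-87357930 (plus strand) for Cd5l, chr5:17835847-17836146 (minus) for Cd36, chr1:120504975-120505274 (minus) for Marco and chr6:129507116-129507415 (minus) for Olr1.
Cd5l: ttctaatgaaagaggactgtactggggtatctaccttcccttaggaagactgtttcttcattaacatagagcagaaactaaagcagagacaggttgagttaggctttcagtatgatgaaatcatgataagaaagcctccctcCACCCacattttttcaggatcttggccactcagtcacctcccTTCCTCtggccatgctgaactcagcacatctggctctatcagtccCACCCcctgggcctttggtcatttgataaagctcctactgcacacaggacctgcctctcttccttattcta
Cd36: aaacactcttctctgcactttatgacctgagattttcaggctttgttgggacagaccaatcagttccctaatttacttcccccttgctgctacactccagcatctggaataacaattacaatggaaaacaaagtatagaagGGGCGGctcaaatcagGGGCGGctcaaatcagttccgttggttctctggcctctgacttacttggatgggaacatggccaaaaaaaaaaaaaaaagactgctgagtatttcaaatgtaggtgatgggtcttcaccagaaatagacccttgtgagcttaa
Marco: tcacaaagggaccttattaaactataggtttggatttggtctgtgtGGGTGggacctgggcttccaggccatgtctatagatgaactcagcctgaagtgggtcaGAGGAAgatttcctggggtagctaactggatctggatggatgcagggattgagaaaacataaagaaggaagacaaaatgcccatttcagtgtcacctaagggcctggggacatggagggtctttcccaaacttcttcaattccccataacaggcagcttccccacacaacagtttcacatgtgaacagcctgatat
Olr1: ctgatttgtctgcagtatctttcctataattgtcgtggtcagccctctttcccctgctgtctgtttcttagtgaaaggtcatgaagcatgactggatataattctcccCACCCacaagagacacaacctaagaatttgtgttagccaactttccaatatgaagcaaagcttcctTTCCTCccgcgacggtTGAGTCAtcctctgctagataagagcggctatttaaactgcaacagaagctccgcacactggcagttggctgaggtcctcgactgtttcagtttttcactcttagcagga
CACCC occurred 2 times for Cd5l, 1 time for Marco, 1 time for Olr1 and not for Cd36, where 57.5% of the 32851 promoters of this length hold it. GGGCGG occurred 2 times for Cd36 and in no other of these sequences (35.7% of all promoters). GAGGAA occurred once for Cd5l, Marco and Olr1 (28.3%), TGANTCA for Olr1 (7.8%) and TATAAA for none (13.6%). The annotated start of Cd36 used here lies 52851 bases inside the listed locus, which has several starts, and the data do not say which one these macrophages used. A match is a description of the letters and not a site of binding.

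Other scavenger receptors were read beside these 8. Of 16 further genes of this kind that were listed, 8 had a mean FPKM of at least 1, and 1 was called higher and 0 lower, beside 9.84% and 8.61% of all tested genes, with a median log2 fold change of -0.04. That gene was Cd44, the hyaluronan receptor, at 43.6, 44.2, 44.7 and 40.0 FPKM in LysM0 to LysM3 and 53.7, 49.8, 53.4 and 52.9 FPKM in K2KO0 to K2KO3 (log2 fold change 0.28, SE 0.06, limma, adjusted p = 0.0159). With GC content and length corrected, Cd44 had a log2 fold change of 0.11 and was not called (limma, adjusted p = 0.257). The most abundant were Cd68, a lysosomal glycoprotein, at a mean of 1807 FPKM, Cxcl16, a membrane-bound chemokine that binds oxidized lipoprotein, at 164.9, Stab1 at 106.6 and Lrp1 at 60.4 FPKM. Their log2 fold changes were -0.04, -0.26, -0.17 and -0.03, and none passed the test. Scarf2, the class F relative of Scarf1, had K2KO values that were all below the LysM values and a log2 fold change of -0.66 that did not pass (SE 0.21, limma, adjusted p = 0.0520). Ager, the receptor for advanced glycation end products, lay just under the filter at 1.29, 1.10, 1.06 and 1.08 FPKM in LysM0 to LysM3 and 0.644, 0.557, 0.604 and 0.866 FPKM in K2KO0 to K2KO3, all K2KO values below the LysM values (exact two-sided permutation p = 0.0286). Cd163, the hemoglobin scavenger receptor, had a ratio of K2KO to LysM of 0.499 at a mean of 0.198 FPKM, with groups that overlapped (exact two-sided permutation p = 0.0571). With the filter lowered to a mean FPKM of 0.1, 3 of the 11 genes of the list then tested were called, 1 higher and 2 lower, where 12.7% of all genes tested at that filter were called. Scarf2, Ager and Cd163 are named here after their values were seen.

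Of 20 genes for partners and signalling of the receptors, 19 were tested, 3 were called higher and 2 lower, beside 18.4% of all tested genes called in either direction, and the median log2 fold change was 0.11. Mertk, a receptor for dying cells (0.36, adjusted p = 0.0285, limma), and the JNK pathway kinases Map2k4 (0.29, adjusted p = 0.0277) and Mapk9 (0.33, adjusted p = 0.0123) were higher in K2KO on the log2 scale. Fcer1g, the adaptor chain through which Cd36 and Fc receptors can signal and the most abundant of the list at a mean of 2609 FPKM, was lower (-0.41, adjusted p = 0.0305, limma), as was the tetraspanin Cd81 (-0.36, adjusted p = 0.0109). With quantile normalization the log2 fold change of Fcer1g was -0.05 (limma, adjusted p = 0.558), and that of Cd81 was -0.22 (adjusted p = 0.0616). Cd9, Itgb2 and Itgb1 followed in abundance, at means of 214, 186 and 95.1 FPKM, and did not pass the test. With GC content and length corrected, the log2 fold changes were -0.26 for Cd81 (limma, adjusted p = 0.0460), -0.28 for Fcer1g (adjusted p = 0.0522), 0.27 for Mertk (adjusted p = 0.0702), 0.19 for Mapk9 (adjusted p = 0.0663) and 0.16 for Map2k4 (adjusted p = 0.0871). Cd81 alone stayed under the threshold, and with the block on the column number added its adjusted p was 0.0534 (limma). With a library left out, Mertk and Fcer1g were each not called in 6 of 8 fits, Map2k4 in 5 and Mapk9 in 1. Cd81 was called in all 8.

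Genes that handle the cholesterol and fatty acids that scavenger receptors bring in were examined next. Of 17 listed, 16 were tested, 5 were called higher and 0 lower in K2KO, beside 9.84% and 8.61% of all tested genes, with a median log2 fold change of 0.12. Npc1, which exports cholesterol from the late endosome, was measured at 33.8, 29.8, 27.5 and 25.5 FPKM in LysM0 to LysM3 and at 44.7, 50.4, 43.9 and 42.1 FPKM in K2KO0 to K2KO3. All K2KO values of Npc1 were well above the LysM values (log2 fold change 0.64, SE 0.09, limma, adjusted p = 0.00772), and it was called in each of 11 other settings and in each of 8 fits that left out a library. Soat1, which esterifies cholesterol (0.40, limma, adjusted p = 0.0241), Nceh1, which hydrolyses the esters (0.40, adjusted p = 0.0322), the fatty acid carrier Fabp5 (0.47, adjusted p = 0.0260) and Acsl1, which activates fatty acids (0.31, adjusted p = 0.0261), were also higher on the log2 scale, without overlap between the groups. With a library left out, Soat1 and Fabp5 were each not called in 5 of the 8 fits, and Nceh1 and Acsl1 in 6. None of these 4 was called after the correction for GC content and length, with log2 fold changes of 0.20 for Soat1, 0.24 for Nceh1, 0.24 for Acsl1 and 0.47 for Fabp5. The value of Fabp5 did not shrink, and its adjusted p of 0.0514 (limma) lay just above the threshold. Fabp5 has near-identical copies that can share its reads. The most abundant genes were the lipid droplet protein Plin2 and the lysosomal Npc2 and Lipa, at means of 1870, 785 and 522 FPKM, and none of them passed the test.

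Of 15 transcription factors known for scavenger receptor genes, all were tested, 1 was called higher and 1 lower, beside 18.4% of all tested genes called, with a median log2 fold change of -0.08. Nr1h3, the sterol-sensing nuclear receptor LXRα, was measured at 32.1, 30.3, 26.5 and 29.0 FPKM in LysM0 to LysM3 and at 20.1, 23.1, 19.4 and 17.6 FPKM in K2KO0 to K2KO3. All K2KO values were below the LysM values (log2 fold change -0.56, SE 0.09, limma, adjusted p = 0.0109), and with GC content and length corrected the log2 fold change was -0.40 (adjusted p = 0.0501). Nfe2l2, which encodes the oxidative stress factor NRF2, was higher, with 1 LysM library inside the K2KO range (log2 fold change 0.30, limma, adjusted p = 0.0380). It was not called after that correction (0.24, limma, adjusted p = 0.0928) or in 6 of the 8 fits that left out a library. Junb, Fos, Cebpb and Spi1, the gene of PU.1, were the most abundant, at means of 676, 390, 385 and 227 FPKM, and did not pass.

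**Figure D5:**
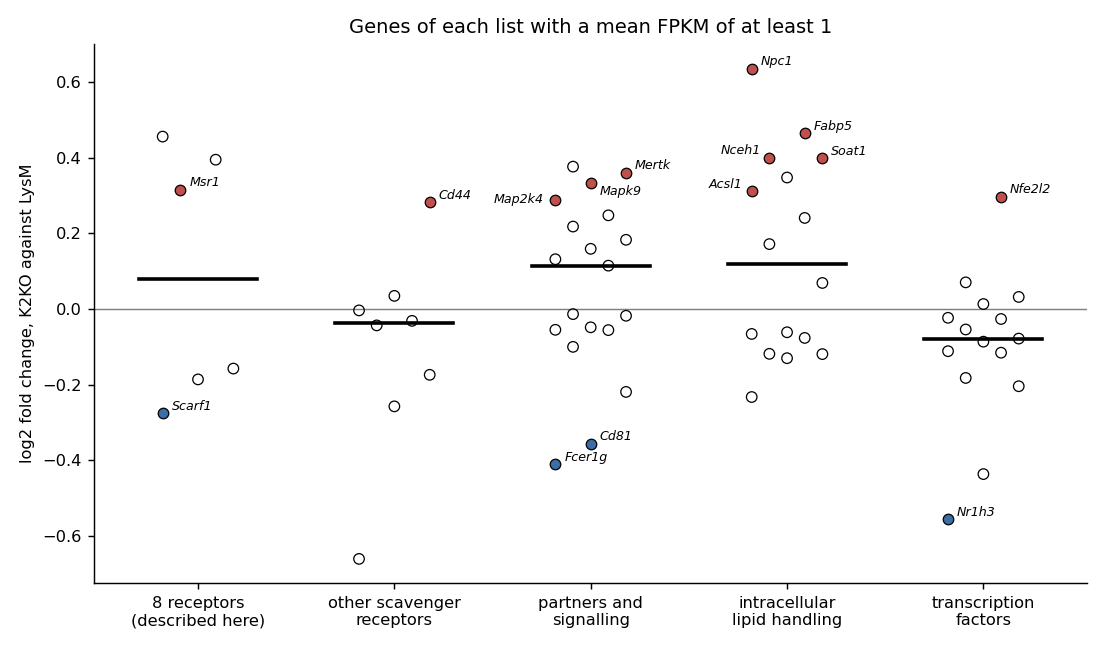
Log2 fold change of K2KO against LysM (vertical axis) for each tested gene of the 8 receptors described here and of the lists of other scavenger receptors, partners and signalling, intracellular lipid handling and transcription factors. Filled red and blue points with names are genes called higher and lower, open points are the others, and black lines are the medians of the lists, which lie between -0.08 and 0.12.

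Markers of the macrophage and of other cells in a marrow culture were examined beside the receptors. The 10 macrophage markers summed to 4987 ± 136 FPKM in LysM and 4581 ± 47.4 FPKM in K2KO (SD, n = 4), with all K2KO sums below the LysM sums (exact two-sided permutation p = 0.0286). The summed FPKM of all genes was also lower in most K2KO libraries, and as a share of it the macrophage markers made up 0.997, 0.957, 0.892 and 0.911% in LysM0 to LysM3 and 1.02, 0.982, 0.952 and 0.922% in K2KO0 to K2KO3. On this scale, chosen after seeing the data, the groups overlapped and the K2KO mean was the higher (exact two-sided permutation p = 0.4). Of the 9 macrophage markers tested, Mertk was called higher and Lyz2 lower, beside 18.4% of all tested genes called (9.84% higher and 8.61% lower), a share that also stands beside the counts for the other cell types. Lyz2 is the lysozyme M gene, which carries Cre on both alleles in both groups, so its level is not a usable macrophage marker here. Lyz2 also has a near-identical copy, Lyz1, over 1264 of the 1316 bases of its transcript, so its value is uncertain.

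Of 7 listed erythroid and megakaryocyte markers, 3 were tested and the platelet chemokine gene Ppbp was called higher (log2 fold change 1.07, limma, adjusted p = 0.0291), while the summed level was 273 ± 90.2 FPKM in LysM and 302.5 ± 93.1 in K2KO and was mostly Pf4. The 3 tested genes, Ppbp, Pf4 and Itga2b, had a median log2 fold change of 0.53, all above 0, and Itga2b, an integrin chain of platelets, had a ratio of K2KO to LysM of 1.55 with groups that overlapped. Gp9, a platelet glycoprotein gene under the filter, was at 0.152, 0.386, 0.245 and 0.342 FPKM in LysM0 to LysM3 and 0.668, 0.547, 0.872 and 0.924 FPKM in K2KO0 to K2KO3, all K2KO values above the LysM values (exact two-sided permutation p = 0.0286). Of 8 neutrophil markers, 7 were tested and Camp was called lower (-1.15, limma, adjusted p = 0.0178), with sums of 249.8 ± 54.7 and 250.2 ± 60.8 FPKM and S100a9 most abundant at 129 FPKM. The median log2 fold change of these 7 was 0.02, with 4 above 0. With GC content and length corrected, the log2 fold changes were -0.45 for Lyz2 (limma, adjusted p = 0.0564), 1.01 for Ppbp (adjusted p = 0.0672) and -0.95 for Camp (adjusted p = 0.0354), close to the values without it. None of the 2 tested dendritic cell markers of 7, the 2 tested endothelial markers of 6 and the 4 tested osteoclast markers of 6 was called. Their sums were 7.13 and 7.65 FPKM (mostly Itgax), 4.46 and 5.28 FPKM (mostly Vwf) and 150.7 and 175.4 FPKM (led by Atp6v0d2) in LysM and K2KO, with Calcr listed at 0. As a share of the summed FPKM of the library, the endothelial markers were higher in all K2KO than in all LysM libraries (exact two-sided permutation p = 0.0286, and 0.257 after Benjamini-Hochberg adjustment over the 9 marker lists), while their summed FPKM overlapped between the groups (exact permutation p = 0.114). The groups overlapped on this share for the other cell types examined. The 7 fibroblast, 6 lymphocyte and 5 mast cell markers were all under a mean of 1 FPKM, with sums of 0.637 and 1.76, 1.05 and 1.66, and 0.290 and 0.496 FPKM, led by Dcn, Cd79a and Cpa3, and with Tpsb2 listed at 0. The part of cell composition in the differences of the receptor genes was not tested.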

How the data were processed

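RNA of the BMDMs was sequenced, and the authors deposited one table of FPKM, made with Cufflinks on mm10, with one column for each library and no pooling. The study's methods name TopHat2 as aligner, the submitters' processing notes list STAR and Cuffdiff, and versions are not given in the sources used here. The study's methods name a stranded kit. All 8 columns were mapped to a genotype. Of the 23761 listed genes, 23645 matched GENCODE M21 for GC content, and positions are those of the table on mm10. FPKM + 0.1 was put on the log2 scale from the deposited values, and genes averaging 1 FPKM or more were compared with limma 3.58.1 (intensity trend, no covariate, Benjamini-Hochberg) in R 4.3.3. For single values an exact two-sided permutation test was run with Python 3.11.15 and scipy 1.17.1. Near-identical copies (95% identity over 200 bases) were sought with blast 2.17.0. The fit was also run on simulated data without a GC trend or shared library structure, which does not test the calls given here.

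The members and lists were chosen with earlier results of these data known. Named are Klf2, Gapdh, Actb, the 8 receptor genes, the called and the 4 most abundant genes of each list, the called, the most abundant and the zero-level markers, and the 2 genes most like each tested receptor. Scarf2, Ager, Cd163, Gp9, Itga2b, Lyz1 and Gm42633 fall outside this rule and were chosen after their values were seen or as copies or neighbours of named genes. The alternatives were a pseudocount of 1 or 0.01, a mean FPKM of at least 0.1 or no filter, quantile or upper-quartile scaling, limma without a trend, ordinary least squares, a regression on GC content and length (span 0.3), a block on the number of the column, alone and with that regression, shares without Cd5l, and each library left out. The correction of shares and ratios and the marker sums as shares of a library were chosen after seeing the data. Over all tested genes, libraries with the same number at the end of the column name did not vary together, and the main fit used no pairing.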

Additional observations from a re-analysis of the deposited data

Results flagged for a closer look

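In 44 groups of 4 values examined for a library far from the others, 2 held one, where chance gives about 1 in 20 groups, or 2.2. Both were in K2KO1. Scarb1 was 33.8 FPKM in K2KO1 and 27.2 to 27.3 FPKM in the other K2KO libraries, a gap of 0.984 of the range of the group. Colec12 made up 0.879% of the summed FPKM of the 8 genes in K2KO1 and 1.81 to 1.90% in the other K2KO libraries, a gap of 0.909 of the range. K2KO1 also had the highest Cd36 of the 8 libraries and the highest Msr1. The cause was not tested.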

How the results depend on the processing

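The direction of the 6 tested receptor genes was the same in all 11 other settings and in all 8 fits that left out a library. Klf2 turned to 0.050 after the GC content and length correction, with and without the block. Msr1 was not called without a filter (0.32) or after the correction, with and without the block (0.066), and ranged from 0.26 to 0.36 when a library was left out. Scarf1 was not called with a pseudocount of 1 (-0.27), a filter of 0.1 or none, no trend or ordinary least squares (-0.28 each), quantile (-0.22) or upper-quartile scaling (-0.23), or after the correction (-0.16), and ranged from -0.35 to -0.21 by library left out. The number of receptor genes called was 1 with a pseudocount of 1, a filter of 0.1, quantile or upper-quartile scaling, no trend or ordinary least squares, and 0 without a filter (2 at an unadjusted p under 0.05, limma) or after the correction, with and without the block, and 0 to 2 by library left out. All genes called numbered 483 without a filter, 746 by ordinary least squares, 856 after the correction and 705 with block and correction, and from 337 without LysM3 to 2837 without K2KO3. Upper-quartile scaling moved the share of calls that were higher in K2KO from 53.3 to 64.1%.

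Of the other scavenger receptors, 2 were called with a pseudocount of 0.01, quantile scaling, no trend or the block, 3 with a filter of 0.1 and 0 after the correction, alone or with the block (0 to 2 by library left out). Of partners and signalling, 2 were called without a filter, with quantile scaling or ordinary least squares, 1 after the correction and 0 with block and correction (1 to 6 by library left out). Of lipid handling, 1 was called without a filter, by ordinary least squares or after the correction, alone or with the block (1 to 6). Of transcription factors, 1 was called without a filter or by ordinary least squares and 0 after the correction, alone or with the block (1 to 3). Beside these counts, 12.7% of all tested genes were called with a filter of 0.1, 2.03% without a filter and 7.84% after the correction. Of the 10920 genes tested in each other setting, 2035 were called with a pseudocount of 0.01, 1534 with quantile scaling and 1846 without a trend. The block gave 2057, ordinary least squares 746, block and correction 705, and the fits that left out a library 337 to 2837.

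With 3 against 4 libraries the smallest exact p is 0.0571, so no share could pass with a library left out. The differences then ranged from 7.54 to 11.2 points for the Cd36 share, from -9.09 to -5.70 points for the Cd5l share and from -0.72 to -0.46 for the log2 ratio of Scarb1 to Cd36. After the correction they were 5.04, -4.26 and -0.28. Without Cd5l in the sum, the Cd36 share differed by 8.23 points (exact permutation p = 0.114) and the Scarb1 share by -3.64 points (p = 0.0286). The sign of 2 differences turned with a library left out, the Marco FPKM without LysM2 (0.0063, range -0.36 to 0.0063) and the log2 ratio of Msr1 to Cd36 without LysM3 (0.014, range -0.27 to 0.014). The correction draws each library to one curve over GC content and length by construction, and other causes were not tested.

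Over all tested genes, libraries of the same number did not vary together (same-number correlations of -0.07, 0.02, 0.07 and -0.06). Such a correlation over all genes cannot show that the libraries were not paired. With the replicate block, 2057 genes and 2 receptor genes were called. FPKM carry no read counts, so the low values of Marco and Olr1 have no known counting error.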
